A study of Homo sapiens with 6 samples.

Results

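Thymidine glycol (Tg) is a thymidine whose base has been oxidised. Its places in the genome were read in the 5 human genes of the VPS10-domain receptors, SORCS1, SORCS2, SORCS3, SORL1 and SORT1. A Tg site is a stretch of DNA at which the authors' peak calling found more labelled fragments than background. A site was taken as a member when the midpoint of its start and end lay in the body of 1 of these genes, as drawn in the RefSeq gene table of GRCh38.p14, which shares its coordinates with hg38. The rule found 22 of the 13061 sites in both lists, 18 of 9373 in the double-knockout list and 4 of 3688 in the wild-type list. The genes were chosen by their numbers of sites in these lists, SORCS2 for its many double-knockout sites, so the numbers of sites and the differences between the lists are descriptions and carry no test.

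The cells were HEK293T, an established human embryonic kidney line. The first group was the derived line with the genotype NTHL1-/-,NEIL1-/-, here called double knockout, with 2 labelled libraries, and the second was the wild-type line, also with 2 labelled libraries. An input library of each genotype completed the 6 samples. No group received a drug or another exposure; the treatment named for the labelled libraries is the labelling of their DNA with NTHL1 protein. NTHL1 and NEIL1 are DNA glycosylases that remove oxidised pyrimidines at the start of base excision repair. NTHL1 also served as the probe, since it can be fixed covalently to the DNA where it has cut out a Tg. Whether the knockout line is a single clone is not given in the sources used here. The lists mark DNA and hold no expression values, so they do not check the cell type.

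VPS10-domain receptors are membrane proteins that carry other proteins between the Golgi, the cell surface and endosomes. They are best known in neurons, where they bind proneurotrophins and other ligands through a folded domain first described in the yeast sorting receptor Vps10. SORT1 encodes sortilin, a receptor for proneurotrophins and progranulin that also affects lipoprotein release by the liver. SORL1 encodes SorLA, which routes the amyloid precursor protein and is a risk gene of Alzheimer's disease. SORCS2 encodes a receptor for proneurotrophins such as proBDNF that acts together with the neurotrophin receptor p75. SORCS1 and SORCS3 are its nearest relatives; in mice SORCS1 sorts synaptic membrane proteins and SORCS3 takes part in synaptic depression.

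There was 1 list of sites per genotype and no value per library, so nothing below has a spread between replicates and no p-value was computed for any difference between the genotypes. Total reads per library are unknown. Reads at the summit of each site and the caller's background there were recovered from the deposited fold enrichment and −log10 p, and the lowest background put the double-knockout data at 1.61 times the depth of the wild-type data, or 1.69 times with fragment length included. This estimate assumes that the lowest background is the caller's genome-wide rate, which was not checked, and every depth-scaled value below rests on it. Intervals given for site numbers and reads are exact 95% Poisson intervals, which cover counting error only and not copied reads. Intervals of a ratio of reads are exact binomial intervals of the same kind, with the depth ratio taken as fixed.

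SORCS2 held most of the sites of the family in both genotypes. Its body runs over 550 kb of chromosome 4, from 7192538 to 7742827, and held 14 double-knockout sites (interval 7.65 to 23.5) and 3 wild-type sites (0.619 to 8.77). That was 77.8% of the family's double-knockout sites and 3 of its 4 wild-type sites, on 26.8% of the family's length. Per 100 kb the gene held 2.54 double-knockout and 0.545 wild-type sites. The rate of chromosome 4, which carries few sites, would give 0.744 double-knockout and 0.321 wild-type sites in a gene of this length. Although SORCS2 makes up 0.289% of the chromosome, it held 5.45% of its 257 double-knockout sites and 2.70% of its 111 wild-type sites. HEK293T chromosomes are known to be uneven in copy number, which was not corrected for.

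The sister genes, of about the same length, held far fewer sites than SORCS2. SORCS3 (chromosome 10, 104641290 to 105265242, 624 kb) held 2 double-knockout sites (0.242 to 7.22) and no wild-type site. SORCS1 (chromosome 10, 106573663 to 107181138, 607 kb) held 1 double-knockout site (0.0253 to 5.57) and no wild-type site. The rate of chromosome 10 would give 2.10 and 2.05 double-knockout sites in SORCS3 and SORCS1, so the numbers in these genes lay close to that rate. SORL1 (chromosome 11, 121452314 to 121633763, 181 kb) held 1 site in each list, against 0.540 double-knockout and 0.177 wild-type sites at the rate of its chromosome. SORT1 (chromosome 1, 109309575 to 109397918, 88.3 kb) held no site in either list. In all, 4 of the 5 genes had a double-knockout site, beside 14.0% of all 20037 protein-coding genes, and 2 of the 5 had a wild-type site, beside 5.88% of all.

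**Figure D1:**
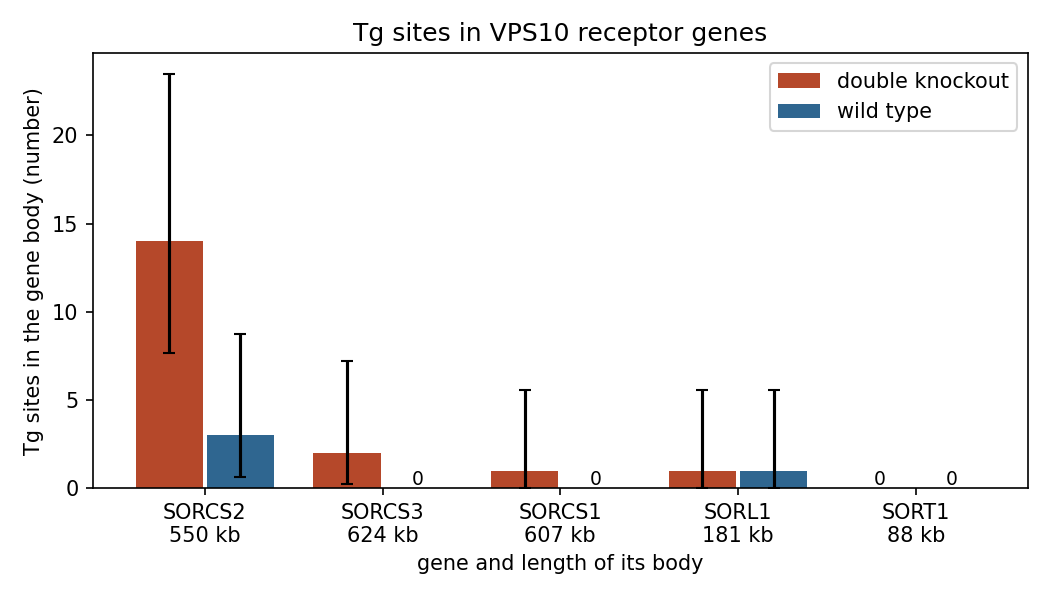
Number of Tg sites in the body of each VPS10 receptor gene (vertical axis) by gene (horizontal axis, with the length of the gene), double knockout left and wild type right; error bars are exact 95% Poisson intervals of numbers above 0. SORCS2 stands out with 14 double-knockout and 3 wild-type sites, while no other gene holds more than 2 in either list.

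Long genes hold a site more often than short ones, and the members are long. Of the 3789 genes at least as long as SORT1, the shortest member, 34.7% held a double-knockout site and 15.5% a wild-type site. Of the 315 genes of 500 kb or more, a class that holds SORCS1, SORCS2 and SORCS3, 54.6% had a double-knockout site and 28.6% a wild-type site. The median gene of this class had 1 double-knockout site and no wild-type site, so SORCS1 sat at the median in both lists.

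Among long genes SORCS2 ranked high in the double-knockout list and less so in wild type. At least as many double-knockout sites were found in 1.59% of the 315 long genes, which is 5 genes with SORCS2 among them. PTPRN2, a phosphatase-like gene, and CDH4, a cadherin gene, were the only genes of any length with more, and both were also denser per base than SORCS2. At least as many wild-type sites as in SORCS2 were found in 8.25% of the long genes, with 20 long genes ahead of it. More double-knockout than wild-type sites were found in 46.3% of the 315 long genes, among them SORCS1, SORCS2 and SORCS3. These were 146 of the 172 long genes with any double-knockout site, since the other genes could not have more. With lists of 9373 and 3688 sites, such an excess was common among long genes with sites and is not particular to SORCS1, SORCS2 and SORCS3.

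**Figure D2:**
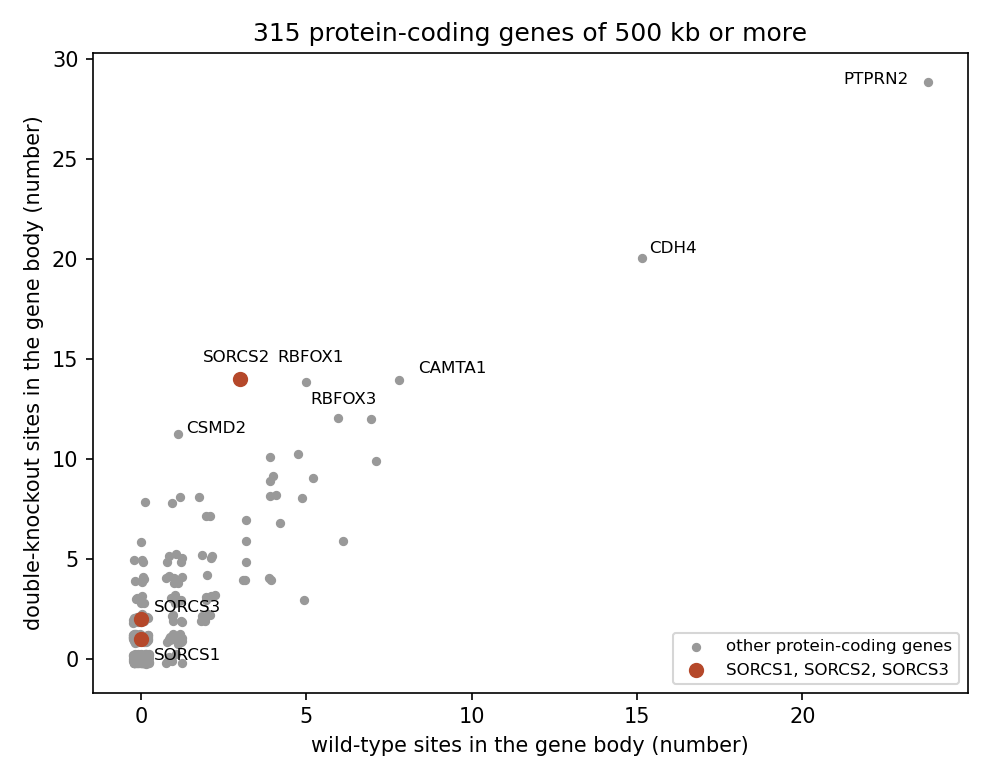
Double-knockout sites (vertical axis, number) against wild-type sites (horizontal axis, number) in the bodies of 315 protein-coding genes of 500 kb or more, 1 point a gene; grey points are shifted slightly so that equal numbers can be seen. SORCS2 lies at 14 and 3, above genes with similar wild-type numbers, and SORCS3 and SORCS1 lie at 2 and 1 with no wild-type site.

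As a description, the share of wild-type sites was set beside that of the lists. Wild-type sites were 3 of the 17 in the gene, 17.6% with an exact 95% binomial interval of 3.80% to 43.4%, and 28.2% of all sites in both lists. In all 5 genes the wild-type share was 4 of 22 sites, 18.2% (5.19% to 40.3%), and in the 4 genes other than SORCS2 it was 1 of 5. The intervals cover counting error only, and since SORCS2 was chosen for its double-knockout sites they are no test.

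Along SORCS2 the double-knockout sites fell into 2 stretches. Positions are distances of the midpoint from the lower-coordinate end of the gene. No site of either list lay in the first 115 kb. From 115 kb to 224 kb there were 7 double-knockout sites, then 1 at 319 kb, and from 405 kb to 532 kb there were 6. The widest gap between neighbours was 94.7 kb, from 224 kb to 319 kb, and the median gap was 23.4 kb. The wild-type sites lay in the same stretches, 1 in the lower at 195 kb and 2 in the upper at 429 kb and 447 kb. Each of them overlapped a double-knockout site, so their place in the stretches follows from that overlap and is no separate support for the stretches. The median double-knockout position was 272 kb, 49.3% of the way through the gene. The stretches were drawn after the positions were seen. Cut into 3 equal pieces of 183 kb from the lower end, the gene held 4, 4 and 6 double-knockout and 0, 1 and 2 wild-type sites, so that equal pieces do not set the middle apart.

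In the lower stretch the strongest double-knockout site was at 7387468 to 7388105, with a fold enrichment over background of 6.19 and 20 reads (12.2 to 30.9). A second site lay 1.39 kb below it at 7386208 to 7386587, with a fold of 4.88 and 13 reads. These were the closest neighbours in the gene. The other 5 sites of this stretch had, from low to high coordinates, folds of 4.49, 3.34, 3.34, 3.92 and 2.63. The last of them, at 7416477 to 7416892, was among the weakest of the whole list, with 10 reads and, in the authors' deposited table, a q of 0.0486. Of the double-knockout sites 0.960% had a lower fold. The lone site at 319 kb, 7511230 to 7511569, had a fold of 3.69 and 13 reads.

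The upper stretch opened with the strongest site of the gene. It lay at 7597145 to 7597823 and had a fold of 7.91 and 19 reads (11.4 to 29.7) on a background of 1.53 reads. By q in the authors' deposited table it ranked 1314 among the 9373 double-knockout sites, and 94.6% of them had a lower fold. The wild-type list has no site there, and its nearest is 24.0 kb away. Next followed the sites at 421 kb, 429 kb and 447 kb, with folds of 4.79, 4.42 and 5.23. The site at 447 kb, 7639360 to 7640481, was the widest in SORCS2 at 1122 bp. The last sites, at 498 kb and 532 kb, had folds of 4.41 and 3.53.

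**Figure D3:**
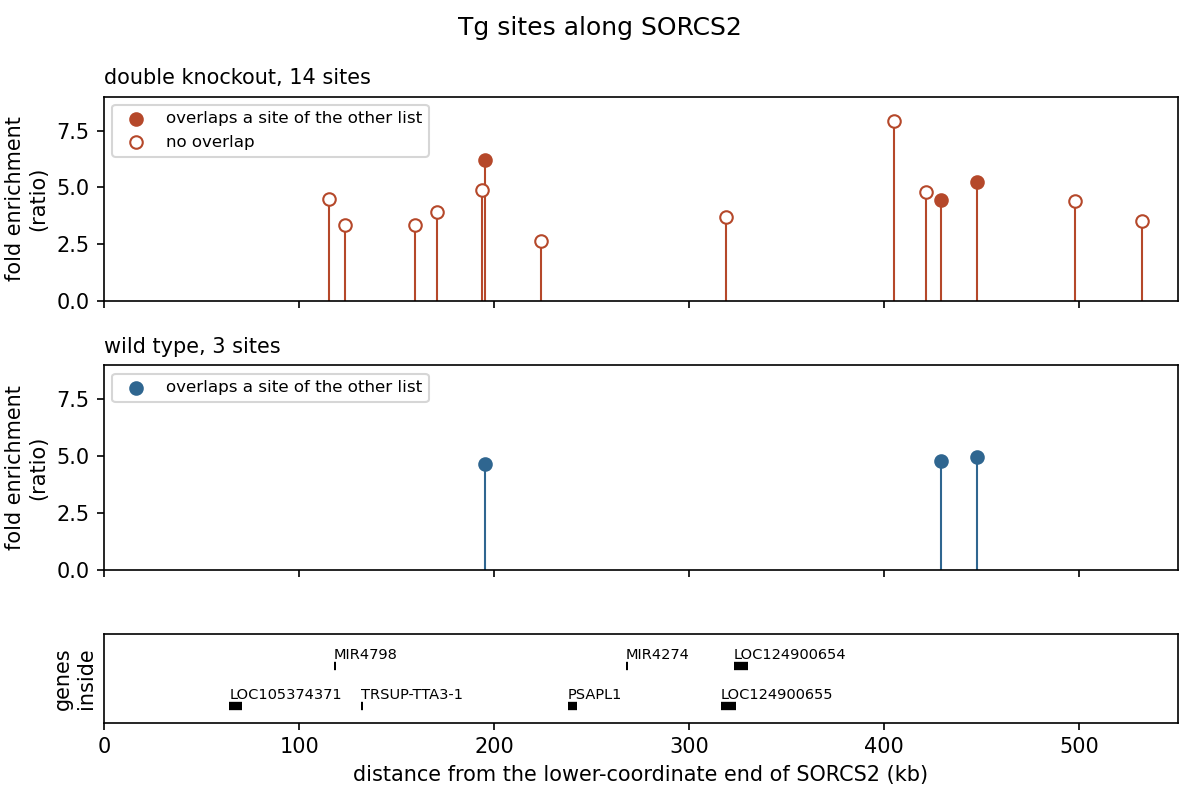
Fold enrichment of each Tg site (vertical axis, ratio of reads to background) against its distance from the lower-coordinate end of SORCS2 (horizontal axis, kb), double knockout above and wild type below, with other annotated genes in the body drawn to scale under them. Filled points overlap a site of the other list: 3 of 14 double-knockout sites and 3 of 3 wild-type sites, and the strongest point, a fold of 7.91 at 405 kb, is open.

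SORCS2 had many sites rather than strong ones. The median fold of its double-knockout sites was 4.42, with a range of 2.63 to 7.91, and that of the whole list was 4.93; 3 of the 14 lay above the list's median. Their reads ran from 10 to 23 with a median of 16.5, and the median of the list was 17. The 3 wild-type sites had folds of 4.64, 4.79 and 4.95, all below the wild-type median of 5.12. Their reads were 14, 11 and 15, and the wild-type median was 13. The background at the sites was slightly above that of the list in both genotypes, with a median of 2.82 reads in SORCS2 and 2.65 in the list for the double knockout, and 2.23 and 1.74 reads for wild type.

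Each wild-type site in SORCS2 was found again in the double knockout. The site at 195 kb had 20 double-knockout and 14 wild-type reads and an overlap of 388 bp. At 429 kb stood 12 double-knockout and 11 wild-type reads, with 223 bp shared. At 447 kb there were 23 double-knockout and 15 wild-type reads, and the 1082 bp of the wild-type site lay wholly in the double-knockout site. Divided by the ratio of depth times fragment length, double-knockout reads came to 0.844 (0.406 to 1.81), 0.645 (0.260 to 1.61) and 0.906 (0.453 to 1.87) times the wild-type reads in that order, and by depth alone to 0.889, 0.679 and 0.955 times. All of these intervals hold 1. The pairs are sites called in both lists, and their summits lay 333, 175 and 241 bp apart, so the reads compared are not from the same position.

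The other 11 double-knockout sites had no wild-type partner. As a share, 21.4% of the double-knockout sites in SORCS2 overlapped a wild-type site (4.66% to 50.8%), and 28.3% of the whole list did. Distances from the unpartnered sites to the nearest wild-type site ran from 1.49 kb to 110 kb with a median of 36.2 kb, and 9 of the 11 were over 10 kb away. These distances were not set beside those of all unpartnered sites, so they are not read as a trait of SORCS2. In the number of such unpartnered sites SORCS2 was behind only FHOD3, a formin gene, and PTPRN2, and level with 1 other protein-coding gene. They had a median fold of 3.92 and 10 to 19 reads, and the 3 partnered sites had a median fold of 5.23 and 12 to 23 reads. Scaled by depth times fragment length, the unpartnered sites had 5.91 to 11.2 reads, median 9.45. Sites in the wild-type list had at least 6 reads and a lower quartile of 11.

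The numbers were also counted after scaling for depth. After the reads and background of every double-knockout site were divided by 1.69, 12 of the 14 in SORCS2 still reached the lowest −log10 p of the wild-type list, 3.79. Both that did not were unpartnered, at 123 kb and 224 kb, so that 9 of the 11 unpartnered sites were left. The same division left 91.0% of the whole double-knockout list. No such share is given for all unpartnered sites. Whether the 2 libraries of a genotype were pooled before the sites were called is not given in the sources used here, and its part in the numbers was not tested.

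Around SORCS2 the lists held nearly equal numbers of sites, although wild-type sites were only 28.2% of all sites in both lists. The flanks thus do not show the usual ratio of the lists. In the 550 kb below the gene lay 5 double-knockout and 4 wild-type sites, and in the 550 kb above it 6 and 5. Per 100 kb the gene held 2.54 double-knockout sites, against 0.909 in the lower and 1.09 in the upper flank. For wild type it held 0.545 sites per 100 kb, against 0.727 and 0.909 in the same flanks. Partners in the other list were found for 3 of 5 and 3 of 6 double-knockout sites and for 4 of 4 and 3 of 5 wild-type sites in the lower and upper flank. In the whole lists 28.3% of double-knockout and 75.3% of wild-type sites had a partner. These are small numbers in a region chosen for its double-knockout sites, and the contrast with the flanks was not tested.

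**Figure D4:**
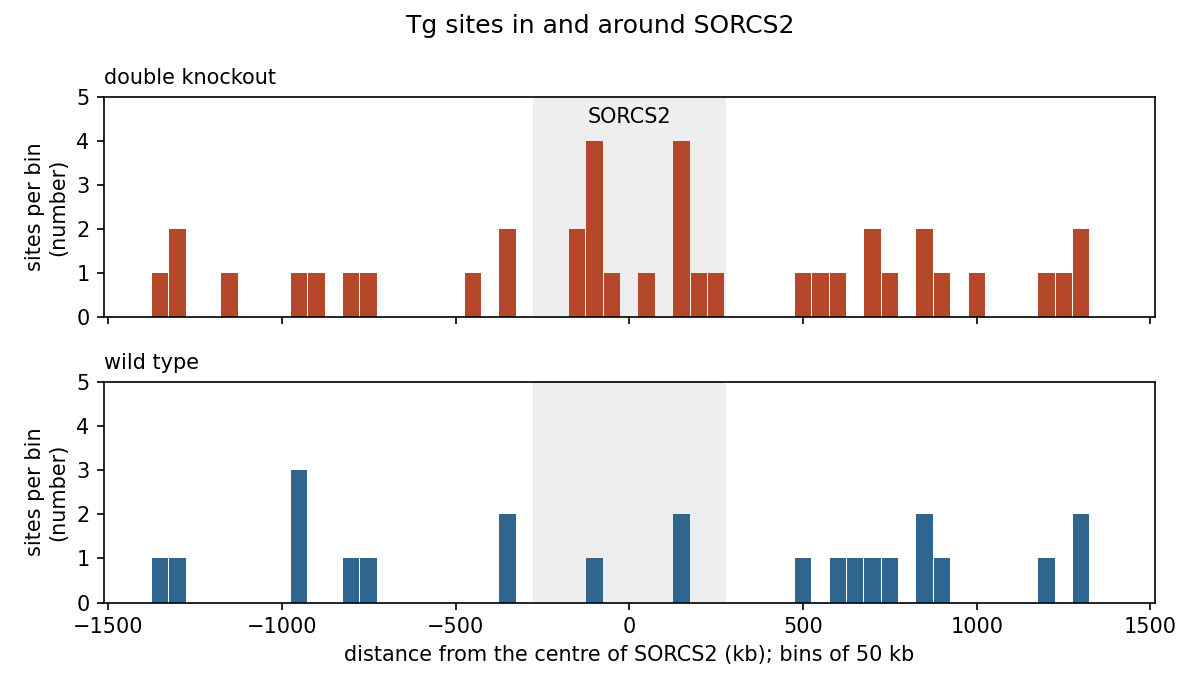
Number of Tg sites in bins of 50 kb (vertical axis) by distance from the centre of SORCS2 (horizontal axis, kb), double knockout above and wild type below; the grey band is the gene body. The double-knockout bins reach 4 sites at 2 places inside the gene, where the wild-type bins hold 1 and 2.

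The distances from the ends of SORCS2 to the nearest sites differed between the lower and the upper end. The first double-knockout site inside lay 115 kb from the lower end, and the nearest outside lay 61.2 kb below the gene, at 7130752 to 7131968 with a fold of 7.33. The outer site had a wild-type counterpart with a fold of 4.10. At the upper end the last double-knockout site inside lay 18.4 kb from the end, less than the median gap of 23.4 kb between double-knockout sites in the gene. The last wild-type site inside lay 103 kb from that end. These distances were not set beside those of other genes. None of the sites in the gene crossed its ends.

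The nearest protein-coding genes on the lower side, GRPEL1, which encodes a mitochondrial chaperone cofactor, TADA2B, a subunit of histone acetyltransferase complexes, and CFAP184, held no site in either list. On the upper side AFAP1, an actin filament-associated protein gene of 181 kb, held none either. SH3TC1, farther on, held 1 site in each list. In these 5 neighbours the numbers were thus equal in both lists.

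Several other annotated genes lie inside the body of SORCS2. The double-knockout site at 319 kb lay in the long non-coding RNA gene LOC124900655 (7508653 to 7516520), so that it cannot be given to SORCS2 alone. The other sites lay in none of these inner genes. PSAPL1, a gene related to prosaposin (7430285 to 7434930), had its nearest double-knockout site 13.4 kb away. The inner gene closest to a site without holding one was the microRNA gene MIR4798 (7310450 to 7310524), 2.43 kb above the double-knockout site at 7307705 to 7308021, and its nearest wild-type site was 77.2 kb away. MIR4274 (7460028 to 7460118) lay between the stretches, 43.1 kb from any double-knockout site. Whether the sites lie in exons or introns was not analysed here.

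The mature microRNAs of these inner genes are shown as landmarks in the lower stretch and in the gap between the stretches of SORCS2, with the seed (bases 2 to 8) in capitals; the sequences are from RefSeq, build GRCh38.p14, plus strand.
hsa-miR-4798-5p, chr4:7310459-7310480: uUCGGUAUacuuugugaauugg
hsa-miR-4798-3p, chr4:7310496-7310517: aACUCACGaaguauaccgaagu
hsa-miR-4274, chr4:7460091-7460108: cAGCAGUCccucccccug

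SORL1 carried a site in both genotypes, but of a different shape. The double-knockout site at 121480471 to 121481920 was 1450 bp wide, and the wild-type site at 121480522 to 121481198 was 677 bp wide and lay wholly within it. They had 20 double-knockout and 14 wild-type reads, a depth-scaled ratio of 0.844 (0.406 to 1.81). The fold was 3.90 in the double knockout and 7.43 in wild type, with backgrounds of 4.38 and 1.02 reads. The lower double-knockout fold thus came with a higher background, while the depth-scaled reads differed by less than their counting error. The backgrounds given are not scaled for depth, so a part of their difference comes with the deeper double-knockout data. The summits lay 794 bp apart. In wild type this was the strongest site of the family, with 92.4% of the list at a lower fold, while in the double knockout 19.4% of the list was lower. The site begins 28.1 kb past the promoter window of the gene.

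The sites of SORCS3 and SORCS1 were listed in the double knockout alone, as most double-knockout sites were. In the whole double-knockout list 28.3% of sites overlapped a wild-type site. In SORCS3 the site at 104656013 to 104656519 had a fold of 6.18 and 14 reads (7.65 to 23.5) and lay 15.0 kb inside the gene, near the transcription start on the plus strand. The second, at 104935683 to 104935938, had a fold of 3.96 and 14 reads and was 256 bp wide, the narrowest width in the list. The SORCS1 site at 106613683 to 106613949 had a fold of 3.43 and 12 reads. The nearest wild-type sites were 122 kb, 401 kb and 2079 kb away, in that order. After scaling by depth times fragment length the SORCS1 site had a −log10 p of 3.57, below the lowest wild-type value, and the SORCS3 sites had 6.84 and 4.46. SORT1 had no site in its body, but a double-knockout site at 109301938 to 109302363 lay 7.43 kb below its lower end, with a fold of 7.47 and 25 reads. On the minus strand of SORT1 that is past the end of the gene, and the nearest wild-type site was 99.8 kb from the gene.

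The surroundings of the genes differed as well. Within 1 Mb of either side of SORCS2 lay 23 other protein-coding genes, a number that includes PSAPL1 inside its body. The site numbers leave out the body, and were 19 double-knockout and 16 wild-type sites. SORCS1 had no protein-coding gene within 1 Mb and 1 double-knockout and no wild-type site, and SORCS3 had 10 genes and 4 sites in each list. SORL1 had 7 genes, 8 double-knockout and 3 wild-type sites. SORT1 had 43 genes, 13 double-knockout and 3 wild-type sites, and yet no site in its own body of 88.3 kb. The windows around SORCS1 and SORCS3 overlap in part.

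None of the promoter windows looked at held a site. The windows are few and short and were not set beside all promoter windows, so nothing about these genes is read from this. RefSeq windows from 250 bases before to 50 after a start were at hand for SORCS1, SORCS3, SORL1 and SORT1, the last with 2 of them, and not for SORCS2. The nearest double-knockout site to a window was 14.7 kb away, at SORCS3, and the nearest wild-type site 28.2 kb away, at SORL1. Thymine, the base that Tg comes from, made up 7.67% of the SORCS1 window, 11.3% and 31.3% of the SORT1 windows and shares between these in SORL1 and SORCS3, all on the strand of the gene.

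Genes with the number pairs most like SORCS2 were sought by the summed difference in double-knockout and wild-type sites over the 2 lists. FHOD3 (14 double-knockout and 1 wild-type site) and RBFOX1, a splicing factor gene (14 and 5), each differed by 2. CACNA1E, a calcium channel gene (11 and 4), and KCNIP1, a potassium channel-interacting protein gene (10 and 3), differed by 4, and RBFOX3, which encodes the neuronal nuclear antigen NeuN (12 and 6), by 5. CSMD2, CELF4, CAMTA1 and DPP6 also differed by 5, and RBFOX3 is listed because its length is nearest to that of SORCS2. Per 100 kb SORCS2 held 2.54 double-knockout sites, FHOD3 2.90, KCNIP1 2.61, CACNA1E 2.24, RBFOX3 2.08 and RBFOX1, which is several times longer, 0.566. The likeness rests on 2 numbers a gene, and SORCS2 was itself chosen for them.

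The partners of VPS10 receptors were counted in the same way. A list of 35 ligands, co-receptors, cargo and sorting proteins was looked up, all of which matched the gene table. A double-knockout site was found in 6 of them (17.1%) and a wild-type site in 3 (8.57%), beside 14.0% and 5.88% of all protein-coding genes; the median number of sites was 0 in the list and in all genes. The median gene of the list was longer, 48.0 kb, than the median protein-coding gene, 24.1 kb. NTRK3, the receptor of neurotrophin-3, held 3 double-knockout and no wild-type sites. NTF3, which encodes neurotrophin-3, held 2 in each list. NTSR1, a receptor of neurotensin, held 1 in each. APP, the gene of the amyloid precursor protein, held 1 double-knockout site and no wild-type site. BDNF, the p75 receptor gene NGFR, GRN and the retromer genes VPS35, VPS26A, VPS26B and VPS29 were without a site.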

How the data were processed

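Tg sites were mapped by DPC-Seq in genomic DNA of HEK293T cells. The submitters' processing notes name Bowtie2, MACS2, bedtools and deepTools with hg38; their versions and settings, and how the 2 libraries per genotype were joined, are not stated there. Each list was assigned by the genotype word its name shares with the library titles. The deposited columns are a score (10 times −log10 q, rounded down), a fold enrichment (ratio), −log10 p and −log10 q values and a summit offset, all made by the authors' peak calling; every q was below 0.05, and these values describe, rank or filter sites within a list.

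Summit reads and background were recovered with a fold that adds 1 to both reads and background, and with a Poisson tail for the p-value; a whole number matched the deposited −log10 p within 0.001 at 100% of sites, and the step was tested on simulated data. The depth ratio is the ratio of the lowest backgrounds, 1.69, or 1.61 after division by the narrowest site widths (256 bp in the double knockout, 243 bp in wild type). Sites overlapped when they shared at least 1 bp. Named genes were the 5 members, genes inside SORCS2, the 3 nearest protein-coding genes on each side, the 5 most alike in site numbers, and list genes with a site; the list genes without a site were named after their values were seen. Members, lists and settings were chosen with earlier results of these data known. Python 3.11.15, SciPy 1.17.1 and pandas 2.3.3 were used. Input libraries were not analysed here, and some genes named by these rules are not reported here.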

Additional observations from a re-analysis of the deposited data

How the results depend on the processing

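Of 26 alternatives, 23 left the site numbers within 1.5 times, or the share and the median position within their intervals. Those intervals are wide, 3.80% to 43.4% for the share and 159 kb to 447 kb for the median, so staying within them is a weak check. With 1 site per 10 kb the median position moved from 272 kb to 319 kb. With sites of a fold enrichment of at least 5 alone, SORCS2 held 3 double-knockout and 0 wild-type sites, and the wild-type share of its sites was 0% of 3 sites, too few to read a share from; this share and the one reduced by depth alone were added after seeing the data. Fewer sites enter under that setting by construction, but SORCS2 kept a smaller part of its sites than the lists did. In the whole lists 49.1% of double-knockout and 53.8% of wild-type sites had such a fold. Double-knockout sites in SORCS2 numbered 12 with q below 0.001, 11 with 1 site per 10 kb and 12 under either depth scaling, and there were 3 wild-type sites with q below 0.001 and with 1 site per 10 kb. With 10 kb added to each gene the family had 19 double-knockout and 4 wild-type sites. No paired analysis was possible because each genotype has 1 list, and for the same reason no replicate could be left out. Reads at single sites, 10 to 23 in the family, limit what can be said of any one of them.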
